A study of Homo sapiens with 6 samples.

Results

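The mature human miRNAs hsa-miR-320a, hsa-miR-320b, hsa-miR-320c, hsa-miR-320d, hsa-miR-320e and hsa-miR-484 were grouped by name, because the first is the textbook case of a miRNA made without Drosha, the others of its letter series resemble it, and hsa-miR-484 is also described as Drosha-independent. These 6 were drawn from 2576 mature miRNAs listed in the count tables, of which 1188 had a count in any library. The tables came from small RNA sequencing of MIO-M1, a spontaneously immortalised human Müller glial line (genotype WT in the labels), and of the extracellular vesicles (EV) it released, and the comparison asked which miRNAs differ in abundance between the vesicles and their donor cells. The 3 whole cell libraries were made from passages 22, 24 and 26, and the 3 EV libraries from passages 23, 25 and 27. Replicate numbers below follow this order within each group and are not from the labels. A shared number does not pair a cell library with an EV library. All cultures were grown in medium with fetal calf serum and washed, and EV were collected by centrifugation from medium that was serum-free per the labels and vesicle-depleted per the methods. Intact EV were treated with RNase A before their RNA was extracted, and RNA was extracted with a different kit from the cells. Replicates are therefore different passages of a single cell line, and all p-values measure the spread between these samples only.

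Most miRNAs are cut from long primary transcripts by the nuclear enzyme Drosha and its partner DGCR8, exported, and cut again by Dicer. The miR-320a hairpin takes a shorter route: transcription itself starts at the end of the hairpin, so the capped precursor needs no Drosha cut, is exported in a cap-dependent way, and is then processed by Dicer. The miR-484 precursor is likewise described as transcribed directly as a short capped hairpin. The later letters of the miR-320 series are named for sequence likeness, and that they share the route of miR-320a is less firmly established.

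The mature sequences are shown because the members' names hide how little separates them. RefSeq entries on GRCh38.p14 matched 5 members at 8 loci. Entries were matched by exact name, and none was found under the name hsa-miR-320a, so its sequence is not shown or compared. Capitals mark the seed, bases 2 to 8 from the 5′ end, which leads target pairing.

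hsa-miR-320b: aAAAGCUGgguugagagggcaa

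hsa-miR-320c: aAAAGCUGgguugagagggu

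hsa-miR-320d: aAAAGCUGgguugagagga

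hsa-miR-320e: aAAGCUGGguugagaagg

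hsa-miR-484: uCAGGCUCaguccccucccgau

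Written 5′ to 3′, miR-320b (22 bases), miR-320c (20 bases) and miR-320d (19 bases) share the seed AAAGCUG and differ only at their 3′ ends. miR-320b and miR-320c share their first 19 bases, and the only substitution over the aligned length is C20U, counted from the 5′ end of miR-320b. Both share 18 first bases with miR-320d, which differs from either by G19A. miR-320e (18 bases) starts 1 base later, so its seed is AAGCUGG, and 17 of its 18 bases equal those of miR-320b, with G17A in miR-320b positions. miR-484 has the unrelated seed CAGGCUC, and 7 of 22 bases matched miR-320b position by position. It is also the member richest in G and C, at 63.6% of its bases against 47.4% to 50% in miR-320b to miR-320e. A read that ends within the shared first bases cannot be given to a single miR-320 member, so each split between miR-320b, miR-320c and miR-320d is uncertain to the extent that such reads were counted. How far this also holds for miR-320a, and so for its share and the ratios to it below, was not examined. In addition, miR-320b, miR-320c and miR-320d each have 2 loci with the same mature sequence, while miR-320a has 1. Even a full-length read of those members therefore matches more than 1 place. What this does to their counts, shares and ratios was not examined either.

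The loci are spread over the genome. miR-320b comes from chr1:116671787-116671808 (plus strand, outside annotated genes) and chr1:224257049-224257070 (minus strand, in an intron of NVL on the same strand). miR-320c comes from chr18:21683559-21683578 and chr18:24321716-24321735, both on the plus strand within introns of genes on the other strand, ABHD3 and OSBPL1A. miR-320d comes from chr13:40727828-40727846 and chrX:140926172-140926190, both on the minus strand and outside annotated genes. miR-320e lies at chr19:46709294-46709311 on the minus strand, in an intron of PRKD2 on the same strand. miR-484 lies at chr16:15643301-15643322 on the plus strand, inside a UTR exon of NDE1 on the same strand and 128 bp from the start of MARF1 on the other strand. The miR-320a hairpin overlaps no other annotated gene, and the nearest start of a coding gene is that of POLR3D, 61 bp away on the other strand. In the RefSeq hairpins miR-320b to miR-320e lie on the 3′ arm and miR-484 on the 5′ arm.

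Library totals ran from 396025 to 3990900 counts for whole cells and 1225541 to 3134561 for EV, with 586 to 1058 miRNAs detected in cells and 329 to 431 in EV. The summed level of the Müller glial miRNAs miR-9-5p, miR-9-3p, miR-125b-5p and miR-204-5p was high in all 6 libraries. It was 126949 to 131082 CPM (a miRNA's counts scaled to the total of its library) in cells and 46891 to 96737 CPM in EV. Not each of them was high, since miR-9-3p had only 6, 68 and 17 counts in cells, against 508, 2647 and 3062 in EV. Of these 4, miR-9-3p was higher in EV (log2 fold change 5.80) and miR-204-5p lower (-1.90). The neuronal miR-124-3p had 0 counts in every library. Levels below are CPM, not divided by length, because the mature sequences differ little in length. They are shares of a library, so more vesicles and more copies per vesicle cannot be told apart. Fold changes are EV against whole cells from the quasi-likelihood test of edgeR, with p-values adjusted by Benjamini-Hochberg over 430 miRNAs past a filter of 5 CPM in at least 3 of 6 libraries, which all 6 members passed.

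At an adjusted p below 0.05, 1 of the 6 members (miR-320c) was higher in EV and 1 (miR-484) was lower. Over all 430 miRNAs tested, 14.7% were higher and 14% lower, so the members' counts are close to the background. The median log2 fold change was -0.97 over the members and -0.23 over all miRNAs tested. At stricter limits (log2 fold change of 2.5 or more in size, with an adjusted p under 0.01), edgeR called 0 members against 5.81% of all miRNAs, and DESeq2 called 1 member (miR-484) against 17.1% of the 420 miRNAs it gave an adjusted p. At an unadjusted edgeR p below 0.05 there were 3 of 6 members, against 35.8% of all miRNAs. On scaled CPM the groups did not overlap for 1 member higher in EV (miR-320c) and 2 lower (miR-320e and miR-484), where 20.9% of all miRNAs separated upward and 27.4% downward.

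hsa-miR-320c, the 20-base member, was the member that rose in EV. Its level was 149, 230 and 255 CPM in whole cell replicates 1, 2 and 3 (counts 59, 916 and 319). In EV replicates 1, 2 and 3 it was 1093, 1607 and 810 CPM (counts 1340, 3276 and 2540). The lowest EV library lay above the highest cell library, and the means were 1170 ± 404 CPM in EV and 211 ± 55.2 CPM in cells (SD, n = 3 each). The log2 fold change was 2.39 (SE 0.44, edgeR adjusted p = 0.0107), and over 15 alternatives it ranged from 2.0 to 3.07 with adjusted p from 5.18e-06 to 0.0380. By rank among all miRNAs of a library it moved from places 124 to 152 in cells to places 66 to 73 in EV. Some blood cell miRNAs were also higher in EV: miR-451a had 0 counts in the 3 cell libraries and 160, 69 and 424 in EV, and miR-142-3p had 0, 0 and 1 against 331, 878 and 680. Both passed the filter through the EV libraries alone, so they could enter the test only as higher in EV. The third of that list of 8 to pass the filter, miR-486-5p, had a log2 fold change of 0.78 (edgeR adjusted p = 0.487). The list summed to 164 to 1163 CPM in cells and 1610 to 2312 CPM in EV, with 4 of 8 miRNAs at 0 in all cell libraries and 0 of 8 at 0 in all EV libraries, and its part in the miR-320c result was not tested. Of 3 photoreceptor miRNAs tested, miR-182-5p (log2 fold change 2.26) and miR-183-5p (2.07) were also higher in EV and passed the test. The third, miR-96-5p, did not pass (log2 fold change 0.09, edgeR adjusted p = 0.985). It had 10, 29 and 8 counts in cells and 0, 91 and 0 in EV. The 3 together summed to 227 to 333 CPM in cells against 1151 to 1218 CPM in EV, and their part was not tested either.

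hsa-miR-484 was the member that fell in EV. Its level was 492, 1069 and 839 CPM in the 3 whole cell replicates (counts 195, 4267 and 1050). In EV it was 45.7, 229 and 48.8 CPM (counts 56, 466 and 153). All EV libraries lay below all cell libraries, with EV replicate 2 well above the other two EV libraries, and the means were 108 ± 105 CPM in EV and 800 ± 290 CPM in cells (SD, n = 3 each). The log2 fold change was -3.07 (SE 0.73, edgeR adjusted p = 0.0171). Leaving out EV replicate 1 gave -2.82 (adjusted p = 0.05003) and leaving out whole cell replicate 2 gave an adjusted p of 0.0526, both just outside the limit. Removing the trend of fold change on the G and C content of the mature sequence, in which miR-484 stands high, gave -1.67 (adjusted p = 0.0665), and over all 15 alternatives the adjusted p ran from 2.14e-05 to 0.0665.

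hsa-miR-320a, the family's founding member and the most abundant by group mean, did not pass the test. It measured 1717, 6423 and 6291 CPM in the 3 whole cell replicates and 939, 5130 and 1438 CPM in EV. The groups overlapped, since EV replicate 2 lay above whole cell replicate 1. The log2 fold change was -1.15 (SE 0.73, edgeR adjusted p = 0.318). Without EV replicate 2 it was -2.07, with adjusted p from 0.0626 to 0.573 over 14 alternatives.

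hsa-miR-320b measured 313, 574 and 555 CPM in whole cells and 590, 1055 and 476 CPM in EV. EV replicate 3 lay below 2 of the cell libraries, and the log2 fold change of 0.46 (SE 0.46) did not pass (edgeR adjusted p = 0.541). hsa-miR-320d measured 53.0, 108 and 136 CPM in cells and 54.7, 68.7 and 58.4 CPM in EV, where its 3 values were much closer together than in cells. Its log2 fold change of -0.78 (SE 0.79) did not pass either (edgeR adjusted p = 0.541). hsa-miR-320e was scarce, with 5, 83 and 20 counts in cells and 4, 11 and 3 in EV. That is 12.6, 20.8 and 15.97 CPM in cells against 3.26, 5.40 and 0.957 CPM in EV, and the filter was passed by the 3 cell libraries and EV replicate 2. The groups did not overlap, but the log2 fold change of -2.46 (SE 1.01) missed the limit (edgeR adjusted p = 0.124). At 5 counts the exact 95% interval of the first cell library runs from 4.10 to 29.5 CPM, and such intervals cover counting error only.

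**Figure D1:**
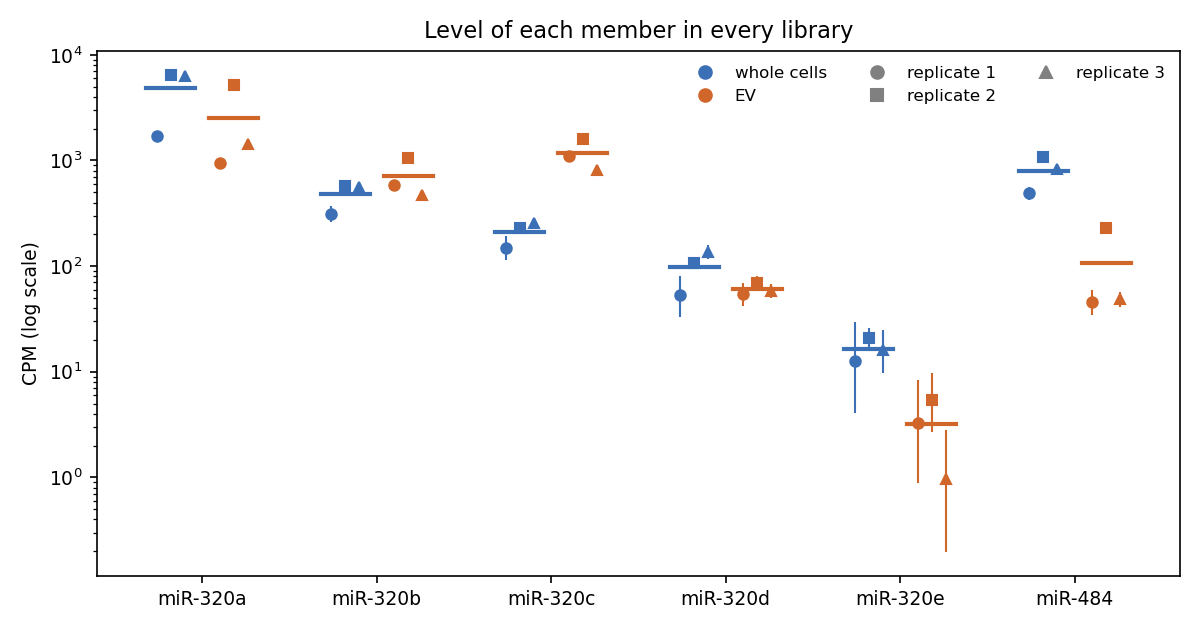
Level of each member in CPM (log axis) in the 3 whole cell libraries (blue) and the 3 EV libraries (orange), with marker shape giving the replicate, vertical lines the exact 95% counting interval and horizontal bars the group mean. The EV values of miR-320c (810 to 1607 CPM) all lie above the cell values (149 to 255 CPM), those of miR-484 (45.7 to 229 CPM) all lie below (492 to 1069 CPM), and those of miR-320a overlap.

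**Figure D2:**
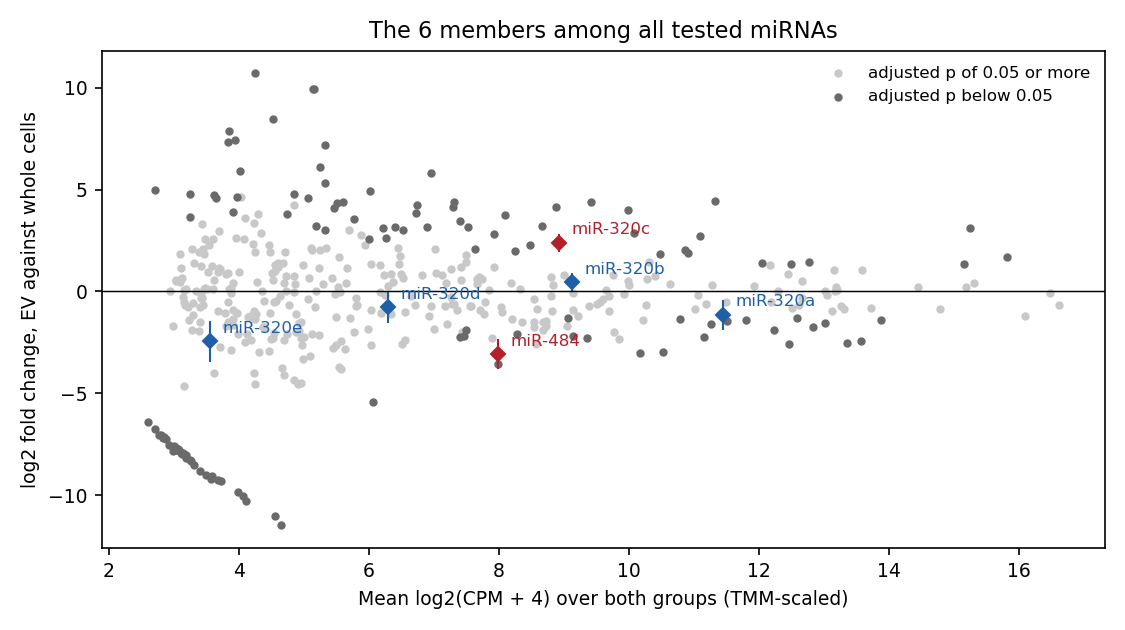
Log2 fold change, EV against whole cells, of the 430 miRNAs tested against their mean log2(CPM + 4) over both groups, with the 6 members as diamonds (red where the adjusted p is below 0.05, blue otherwise) and lines of 1 SE. miR-320c sits at 2.39 and miR-484 at -3.07, and the other 4 members lie between -2.46 and 0.46.

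The order of the members was the same in all 3 cell libraries: miR-320a, then miR-484, miR-320b, miR-320c, miR-320d and miR-320e. In EV, miR-320c stood above miR-484 and miR-320b in all 3 libraries, and in EV replicate 1 also above miR-320a (1093 against 939 CPM). In EV replicates 1 and 3, miR-484 lay just under miR-320d, at 45.7 against 54.7 CPM and 48.8 against 58.4 CPM, pairs whose counting intervals overlap.

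The summed level of the miR-320 family overlapped between cells and EV, while the shares of miR-320a, miR-320c and the scarce miR-320e did not. The 5 letters together measured 2245, 7355 and 7252 CPM in whole cells and 2680, 7866 and 2784 CPM in EV, with means of 5617 ± 2921 and 4444 ± 2964 CPM (SD, n = 3 each) and overlapping groups. Of the family's counts, miR-320a held 76.5%, 87.3% and 86.7% in cells and 35%, 65.2% and 51.7% in EV, so every EV library lay below every cell library. miR-320c held 6.64%, 3.12% and 3.51% in cells and 40.8%, 20.4% and 29.1% in EV, again without overlap. The shares of miR-320b, 13.9%, 7.80% and 7.65% in cells and 22%, 13.4% and 17.1% in EV, overlapped between EV replicate 2 and whole cell replicate 1. miR-320d held 1.47% to 2.36% in cells and 0.873% to 2.10% in EV, which overlap. miR-320e held 0.220% to 0.562% in cells and 0.0344% to 0.122% in EV, so every EV library lay below every cell library, on 3 to 11 counts in EV. The shares within a library add up to the whole, so a larger miR-320c share lowers the others. The shifts of miR-320a and miR-320c are therefore not separate results. How often shares separate in other families was not counted.

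**Figure D3:**
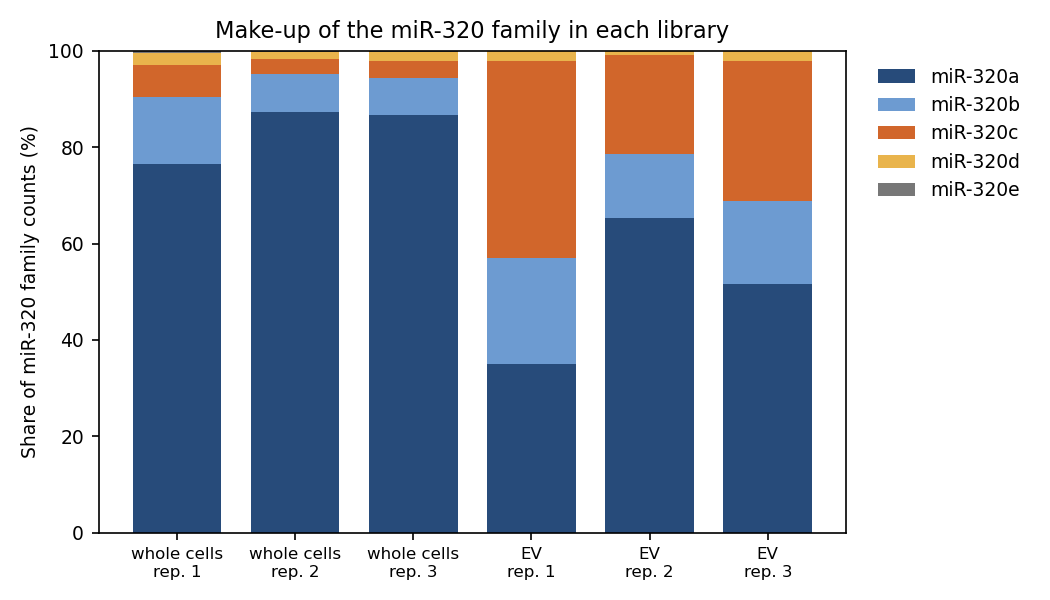
Share of miR-320 family counts (percent) held by each of the 5 letters in each library, stacked to 100. The miR-320a segment takes 76.5% to 87.3% in whole cells and 35% to 65.2% in EV, and the miR-320c segment 3.12% to 6.64% and 20.4% to 40.8%.

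Ratios within a library do not depend on the library total or on scaling. Per 100 counts of miR-320a there were 8.74, 3.58 and 4.06 counts of miR-320c in the 3 whole cell replicates, against 116, 31.3 and 56.3 in EV. The difference in mean log2 ratio was 3.55, an 11.7-fold higher ratio in EV. With 3 libraries against 3 the two-sided exact permutation test cannot go below p = 0.1, which is the value it gave, and the adjusted p over the 5 ratios tested was 0.167. The ratio of miR-320b to miR-320a was 3.09-fold higher in EV (log2 difference 1.63, exact permutation p = 0.1, adjusted 0.167), from 18.3, 8.94 and 8.83 per 100 in cells to 62.8, 20.6 and 33.1. That of miR-484 was 4.41-fold lower (log2 difference -2.14, exact permutation p = 0.1, adjusted 0.167), from 28.7, 16.6 and 13.3 per 100 to 4.91, 4.46 and 3.40. None of these 3 ratios overlapped between groups. The ratios of miR-320d (log2 difference 0.49, exact permutation p = 0.5) and miR-320e (-1.45, exact permutation p = 0.3) did overlap. How often ratios of other miRNAs to miR-320a separate was not counted, and all 5 ratios share miR-320a. For single miRNAs on scaled CPM, 20.9% separated upward and 27.4% downward.

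**Figure D4:**
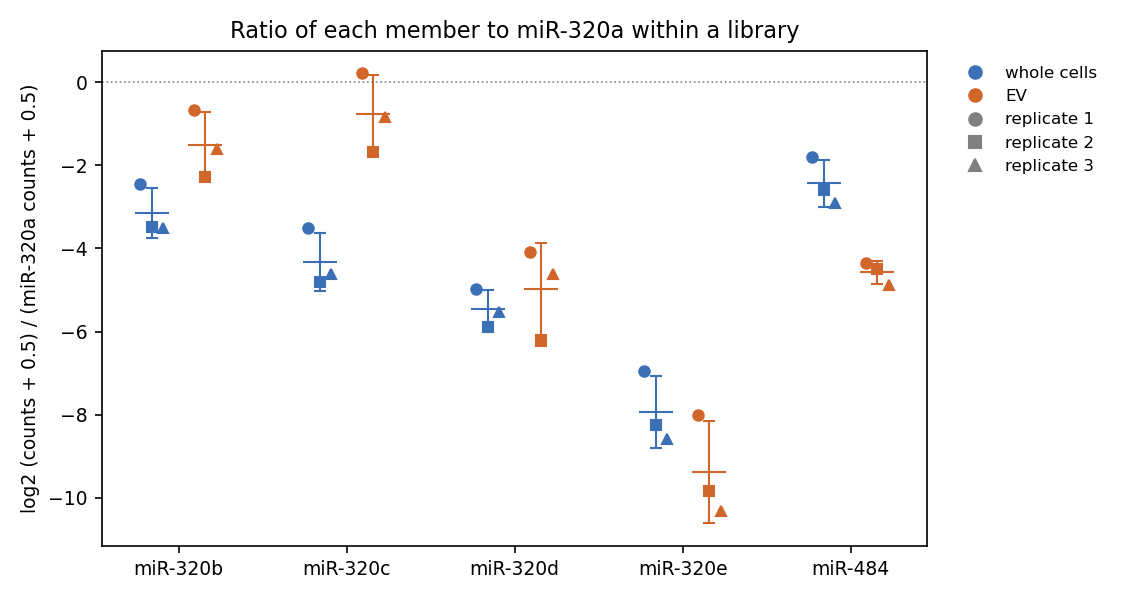
Log2 ratio of each other member's counts to miR-320a counts within each library (0.5 added to both), with whole cells in blue, EV in orange, marker shape giving the replicate, and bars the mean and SD of 3 libraries. The means of miR-320c (-4.32 in cells, -0.76 in EV) and miR-484 (-2.43 and -4.57) come from groups that do not overlap, while miR-320d and miR-320e overlap.

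The ratio between miR-320c and miR-320b, whose first 19 bases are the same, was also taken. Counts of miR-320c per count of miR-320b were 0.476, 0.400 and 0.459 in whole cells and 1.85, 1.52 and 1.70 in EV, so miR-320b was the more abundant of the pair in every cell library and miR-320c in every EV library. The ratio of miR-320c to miR-484 ran from 0.215 to 0.304 in cells and from 7.03 to 23.9 in EV. These ratios were chosen for description after the values were known and were not tested.

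Among miR-320b, miR-320c and miR-320d, whose shared seed AAAGCUG is printed above, the log2 fold changes ran from -0.78 (miR-320d) to 2.39 (miR-320c). That range of 3.17 ranked 6 of 13 among seeds with at least 3 tested miRNAs, so wider ranges were found in other families. miR-320a, without a sequence here, was not placed in a seed group, so this range and rank leave out its log2 fold change of -1.15.

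Other miRNAs made outside the usual Drosha route were set beside the members. Of 23 arms of mirtrons, hairpins freed from short introns by splicing, 3 passed the filter. Of these, miR-1226-3p passed it through the cell libraries alone, so it could enter the test only as lower in EV. It had 5, 131 and 58 counts in cells and 0 in each EV library, at least 18.8-fold lower in mean CPM against a limit of 3 counts in each EV library. miR-877-5p (log2 fold change -1.11, adjusted p = 0.689) and miR-1224-5p (1.14, adjusted p = 0.737) did not pass in edgeR's test. Mirtron levels were low throughout, at 30.3 to 113 CPM summed in cells and 0 to 71.6 CPM in EV. Of 8 miRNAs cut from snoRNA, 4 passed the filter, and 0 rose or fell by edgeR or DESeq2, with 0 at an unadjusted edgeR p below 0.05. miR-664a-5p came nearest, at a log2 fold change of 1.45 (edgeR adjusted p = 0.165). The list summed to 146 to 189 CPM in cells and 193 to 502 CPM in EV.

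Over the 6 libraries, the log2(CPM + 4) of miR-320c was most like that of miR-4497 (Pearson r = 0.984), miR-4532 (0.975) and miR-6087 (0.974). These 3 had log2 fold changes of 4.64, 3.63 and 3.85 (edgeR adjusted p = 0.0501, 0.04999 and 0.0185), and what they share with the miR-320c result was not tested. In cells, miR-4497 and miR-4532 lay near the floor, at mean log2(CPM + 4) of 2.45 and 2.32 against 5.64 and 4.18 in EV. They passed the filter on their EV levels, so they could hardly enter the test as lower in EV. miR-484 was most like miR-1301-3p (0.995), miR-377-5p (0.981) and miR-671-5p (0.975). Of these, miR-1301-3p and miR-377-5p were scarce in EV, at mean log2(CPM + 4) of 2.85 and 2.84 (SD 1.47 and 1.46). Neither passed the test (edgeR adjusted p = 0.154 and 0.230), while miR-671-5p did (log2 fold change -2.26, edgeR adjusted p = 0.0428). miR-320a was most like miR-2110 (0.980), miR-744-5p (0.924) and miR-30d-5p (0.921), and miR-320b most like miR-140-3p (0.967), miR-486-5p (0.918) and miR-125a-3p (0.879). Here miR-2110 was scarce in EV (mean log2(CPM + 4) 3.09, SD 1.88). Between members, r was 0.797 for miR-320a with miR-484, 0.734 for miR-320b with miR-320c, -0.239 for miR-320a with miR-320c and -0.754 for miR-320c with miR-484. These values describe 6 points in 2 groups of 3 that share library totals, and they carry the difference between cells and EV within them.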

How the data were processed

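Per the file headers, the authors deposited whole-number counts of reads per mature miRNA, made with featureCounts 1.5.0-p1 (strand setting 1) from Bowtie 1 alignments against miRBase release 20. The methods name another aligner and miRBase release. The featureCounts call in the headers gave no option for counting reads with several matches. How the alignment step reported such reads, and whether molecular identifiers were used, is not given in the sources used here. The headers name no genome build. Libraries were made with the QIAseq miRNA kit. Groups came from the labels' fraction. No 2 libraries were copies (smallest chi-square per degree of freedom 21.45).

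The 430 miRNAs reaching 5 CPM in 3 or more of the 6 libraries were tested with edgeR 4.0.16 (quasi-likelihood, TMM factors, Benjamini-Hochberg, R 4.3.3). The code was tested on simulated data. DESeq2 1.42.0 was an alternative, beside other scalings and filters, thinning to 396025 counts, a G and C content correction and leaving out each library. Log ratios to miR-320a (0.5 added) used two-sided exact permutation tests (scipy 1.17.1). Intervals are exact 95% (Clopper-Pearson). Named miRNAs were the 6 members, for 4 of them the 3 most correlated others, and listed mirtron, snoRNA and cell type miRNAs. Members and lists were chosen with earlier results of these data known. Mature sequences and positions on GRCh38.p14 are from RefSeq, and gene overlaps from GENCODE 29.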

Additional observations from a re-analysis of the deposited data

How the results depend on the processing

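Each member's fold change kept its direction under every alternative run, and 84 of 89 alternative fold changes stayed on the same side of their limit. The 5 that did not all belonged to miR-320c or miR-484, the only members past the main test. The other members had only to stay uncalled. The stricter limits, counted among these alternatives, reuse the values of the main fit. For the log ratios no p-value was compared. In 40 of 40 alternatives they kept their direction and moved by less than the pooled SD of the groups. No log ratio passed in the main test. The stricter limits left 25 miRNAs and 0 members called, since miR-320c (2.39) and miR-484 (-3.07) then missed on p or size. Without the filter on low counts 240 miRNAs passed. Removing the trend on G and C content, possible for 391 of 430 miRNAs (90.9%) and not for miR-320a, left 1 member past the test (miR-320c, 3.07, adjusted p = 0.00370) and miR-484 at -1.67 (adjusted p = 0.0665). Leaving out single libraries gave 74 (without whole cell replicate 2) to 143 (without EV replicate 1) miRNAs past the test, 81 without whole cell replicate 3, 1 to 2 members, and -4.12 to -2.77 for miR-484, which missed the limit without whole cell replicate 2 or EV replicate 1. With 2 libraries left in a group, the spread is pooled with the other group. RLE scaling moved the median of all miRNAs by -0.18 and gave 54 higher and 67 lower, against 63 and 60, with no member changing direction. No paired analysis was made, since the labels give no replicate numbers and no passage is shared between the groups. The smallest library, whole cell replicate 1 (396025 counts), limits miR-320e most, since 3 counts there are 7.58 CPM.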
